A study of Mus musculus with 6 samples.

Results

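The transcripts described here were measured above background on every wild-type fibroblast array and on no Rap1 knockout array. Of 41174 probes, 47 met that rule with Terf2ip, the gene of Rap1 itself, left out. They make up 0.114% of all probes and 0.191% of the 24606 probes above background on all 3 wild-type arrays. A probe counted as above background where the scanner software's flag was set on more than 0.5 of its spots. The flags of both groups chose the members, so the difference between the groups is described here and not tested. The 47 probes read 47 different genes or transcripts of 33269 on the array, 27 of them with a gene symbol and 20 without. Of the 20 unnamed transcripts, 16 are known only by full-length cDNA accessions that begin with AK.

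All cells were mouse embryonic fibroblasts infected with the SV40 large T antigen, a viral protein that inactivates p53 and the retinoblastoma family, and with Cre recombinase. They were grown with 2 micrograms of puromycin per ml. The 3 wild-type samples and the 3 Rap1 knockout samples share these treatments. In the knockout allele, Cre removes the floxed exon of Terf2ip that carries the end of the coding sequence and the polyadenylation signal. The labels do not say whether the arrays of a group came from separate embryos or cultures, or which allele the wild-type cells carry. A spread between arrays may therefore be technical.

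Rap1 is a subunit of shelterin, the protein complex that coats the TTAGGG repeats of mammalian telomeres, and it is held there by its partner Terf2. It has no strong DNA binding of its own in mammals. Rap1 is also known to occupy sites away from telomeres, and its loss in mouse cells is known to change the expression of genes there. The name of Rap1 here refers to the telomere protein and not to the small GTPase of the same name.

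Between 25393 and 27633 probes per array were above background, and the number of arrays limits the precision. Fibroblast markers were present: 12 of 12 were above background on all wild-type arrays and 11 of 12 on all knockout arrays. Their summed level, in units of the array's 75th percentile, was 613 to 670 in wild type and 329 to 573 in knockout cells, and the summed level of the 10 fat cell markers was 9.91 to 15.6 against 1.46 to 3.78. The fat cell sum rested mainly on Fabp4, Lpl and Pparg. Adipoq, Cd36 and Lep were above background on no array, and Plin1 on all knockout arrays and no wild-type array. By limma, 0 of the 5 fat cell markers tested were lower or higher at an adjusted p under 0.05. At an unadjusted p under 0.05, 2 were lower and 1 was higher. Their median log2 difference (knockout minus wild type) was −1.43, against 0.07 over all features. The adjusted threshold was passed by 2 of 19657 features, so 0 of 5 says little. The part of either sum in the results below was not tested. Of other cell types' markers, 4 of 11 for leukocytes (Ptprc, Adgre1, Itgam and Tyrobp), 4 of 9 for skeletal muscle (Myod1, Myog, Myf5 and Ckm) and 4 of 8 for endothelium (Pecam1, Cdh5, Tie1 and Emcn) were above background on no array. Others were present: 5 of 11 leukocyte markers were above background on all wild-type and 6 on all knockout arrays, and 4 and 3 of 9 skeletal muscle markers. Lyz2, Cd14 and Fcer1g were above background on all 6 arrays, as were Actc1 and the endothelial Kdr. Of 8 endothelial markers, 1 was above background on all wild-type and 2 on all knockout arrays. Above background on all wild-type arrays were also 8 of 11 epithelial, 7 of 11 neural and 8 of 10 cartilage and bone markers. The same held for 6 of 8 smooth muscle, 2 of 9 germ cell and 1 of 7 liver markers. On all knockout arrays these counts were 8, 8, 8, 7, 2 and 2. The summed level of the leukocyte markers was 1.42 to 1.83 in wild type and 0.995 to 1.603 in knockout cells, and that of the skeletal muscle markers 1.99 to 8.12 and 2.03 to 2.47. Terf2ip signal was 343, 347 and 294 in wild-type cells, and it was not above background in knockout cells (3.59, 1.54 and 4.86). Wild-type arrays 2 and 3 stood apart by their likeness. The SD of their log2 difference over 23649 probes was 0.195, against 0.690 to 1.06 for the other pairs. Arrays 1 of both groups lay on slide 1 and the other 4 on slide 2.

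Most members were dim. The detection limit of an array was taken as the lowest signal among its probes above background, which was 7.81, 7.58 and 13.4 on wild-type arrays 1, 2 and 3 and 7.78, 7.18 and 8.66 on knockout arrays 1, 2 and 3. The median member lay 2.23, 3.70 and 1.99 times above the limit on wild-type arrays 1, 2 and 3. For all probes above background in wild type the medians were 88.1, 84.5 and 45.0 times. By mean wild-type level, 36 of the 47 fell in the lowest 10% of those probes. A margin of at least 2 times the limit on every wild-type array was kept by 14 members, a margin of at least 4 times by 2, and in 23 members the lowest margin was under 1.5 times. The lowest margin was on wild-type array 3 for 27 members, on array 1 for 18 and on array 2 for 2. The array with the highest limit, wild-type array 3, was thus the most frequent place of the lowest margin.

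**Figure D1:**
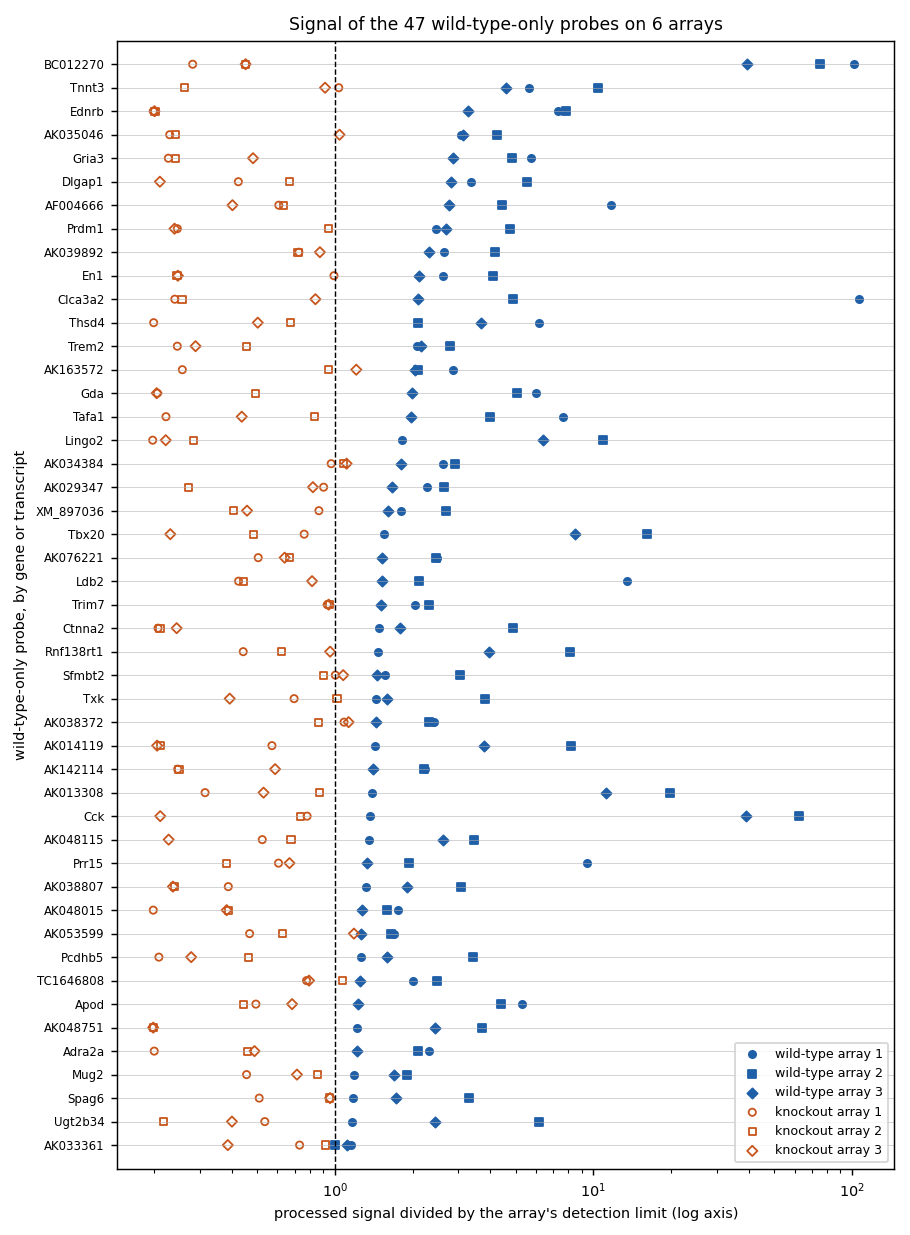
Processed signal of each wild-type-only probe (rows, by gene symbol or accession) divided by the detection limit of its array, on a log axis; filled symbols are the 3 wild-type arrays, open symbols the 3 knockout arrays and the dashed line is the limit. The wild-type points of most rows lie within a few times the limit, while BC012270 lies 39.4 to 102 times above it.

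Knockout arrays were not empty at these probes. Their median signal over the members was 3.55, 3.47 and 4.18 on arrays 1, 2 and 3, and the highest value was 10.49. In 9 members a knockout signal exceeded the array's lowest detected signal without being flagged, since the flag also weighs the spot's local background. The software's second, looser flag marks a spot as positive and significant over background. By that flag 45 of 47 members had signal on at least 1 knockout array and 23 on all 3. The members so marked were 34, 36 and 37 on knockout arrays 1, 2 and 3, against 24.9%, 19.5% and 27.4% of the 11131 probes above background on no array. Of 153 negative control spots, 5, 13 and 9 were so marked on those arrays. Ednrb and AK048751 were the 2 members marked by neither flag on any knockout array. With the looser flag in place of the stricter one, the rule gave 69 probes, of which 2 were shared with the 47, so which transcripts count as wild-type-only depends on the flag.

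The fold of wild type over knockout is only a bound. Log2 signals were scaled to the array's 75th percentile, and the wild-type mean was set against a knockout mean in which any signal under the limit was raised to it. The median bound was 2.78-fold. It was at least 2-fold for 40 members, at least 4-fold for 12 and at least 10-fold for 3. After scaling by the 75th percentile, the lowest wild-type array lay above the highest knockout array in 45 members, and this was so for 5.84% of all probes above background in wild type. The exceptions were Spag6 and AK033361. In the authors' normalised log2 values, which come from the same arrays, 39 of 47 were separated, against 5.75% of those probes. Before scaling, 47 of 47 were separated. The rule chose probes by flags that split the groups, so it largely set this separation, which is no further result about the members. The opposite pattern, above background on all knockout arrays and on no wild-type array, was met by 32 probes (0.0777%), with a median bound of 1.68-fold and a highest of 11.2-fold. Of these, 5 kept a margin of 2 times the limit on every knockout array and 0 kept 4 times.

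The member with the largest bound was a transcript without a gene symbol. BC012270 (probe A_52_P381813) read 797, 569 and 529 on wild-type arrays 1, 2 and 3, and 2.19, 3.24 and 3.92 on knockout arrays 1, 2 and 3. Every wild-type array was high and every knockout array was under its limit. The negative controls of knockout arrays 1, 2 and 3 had lower medians, 1.68, 1.67 and 1.93. The looser flag marked this probe on all 3 knockout arrays. Its wild-type signal lay 102, 75 and 39.4 times above the limit, and the bound was at least 71.7-fold, with measured means of −0.81 ± 0.24 and −8.35 ± 0.31 (SD, n = 3, log2 relative to the 75th percentile). It was the brightest of the members by mean wild-type level. Its second probe (A_52_P381806), no member because knockout array 3 was flagged, read 1310, 877 and 746 in wild type and 6.16, 6.07 and 21.6 in knockout cells. The margin of Terf2ip, for comparison, was 43.9, 45.8 and 21.9 times the limit, and its bound was 37.7-fold.

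The named members are grouped by known role below, and this grouping was made after their values were seen, as was the choice to name Adra2a, Sfmbt2 and Mug2. Among receptors and their ligands, Ednrb, a receptor for endothelins that guides melanocyte and enteric neuron precursors, was even across wild-type arrays. It read 57.1, 59.4 and 43.8 in wild type and 1.55, 1.45 and 1.74 in knockout cells, a bound of at least 6.11-fold (measured means −4.37 ± 0.18 and −9.30 ± 0.26, SD, n = 3). A second Ednrb probe was brighter and above background everywhere, with 143, 140.5 and 99.5 in wild type and 20.7, 32.5 and 27.6 in knockout cells. The 2 groups did not overlap at this second probe, while the split at the member probe was largely set by the rule. Ednrb signal was lower in knockout cells on both probes but undetected on only 1. Of its partners, the ligand gene Edn1 read 2514, 49.7 and 47.2 in wild type and 119, 13.1 and 83.0 in knockout cells, which overlapped. Edn3 was above background on no array at either probe.

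Cck, which encodes the peptide hormone cholecystokinin, was the named member with the largest bound, at least 15.9-fold, and the least even member (wild-type SD 3.27 on the log2 scale, n = 3). It read 10.7, 475 and 520 in wild type and 6.08, 5.30 and 1.83 in knockout cells. On wild-type array 1 Cck was only 1.37 times above the limit, so its size rests on the near-alike arrays 2 and 3. On the log2 scale the bound was 3.99 with all arrays, 5.97 on slide 2 alone and 0.038 on slide 1 alone, which holds wild-type array 1. Of the cholecystokinin receptors, Cckar was above background on no array, and 1 of 2 Cckbr probes was above background on all 6.

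Adra2a, an inhibitory adrenergic receptor, shows how far membership can depend on the probe. Its member probe read 18, 15.9 and 16.3 in wild type and 1.56, 3.31 and 4.24 in knockout cells, a bound of 1.93-fold. Its other probes were well measured on all 6 arrays: A_51_P434567 read 418, 303 and 256 in wild type and 18.2, 42.9 and 20.8 in knockout cells, and A_52_P67493 read 332, 242 and 215 against 13.6, 91.1 and 13. Signal was therefore measured in knockout cells, at a level 11.4- and 9.28-fold below wild type on these probes, with no overlap. Upstream of the start of Adra2a, in the RefSeq promoter window of GRCm38.p6 (chr19:54045218-54045247, plus strand), lies the only TATAAA among the 23 member genes with such a window, 29 bases before the start and shown in capitals because a TATA box is the classic element at that distance:
Adra2a: tcatcctggggcTATAAAaccagtccagcg

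Gria3, a subunit of AMPA-type glutamate receptors, had the most even wild-type arrays among the members with a bound of at least 4-fold. It read 44.8, 36.9 and 38.3 in wild type and 1.77, 1.74 and 4.18 in knockout cells (at least 4.6-fold, wild-type mean −4.78 ± 0.10, SD, n = 3). A second Gria3 probe read 93.8, 36.7 and 31.9 in wild type and 2.85, 1.94 and 10.8 in knockout cells, of which array 3 was flagged. The related subunit Gria4 was above background on wild-type arrays 2 and 3 alone with all 3 of its probes, and Gria2 on no array with either. In the list of ion channels and neurotransmitter receptors, none of the 24 other genes tested rose or fell by limma (2 lower and 3 higher at an unadjusted p under 0.05), with a median log2 difference of 0.21 (knockout minus wild type) against 0.07 over all 19657 features. Over all features limma called 2 lower in knockout cells (0.0102%), Terf2ip and BC012270 by its second probe. It called 0 higher (0%, with 1103 at an unadjusted p under 0.05). Both called probes entered the fit through the wild-type arrays, where they are high. The transcript BC012270 was also chosen by this contrast on these arrays, so its call is a description and no independent test. No feature was called with the slide or the replicate number as a block, and 190 were called without wild-type array 1, a fit in which the wild-type spread is only that of the near-alike arrays 2 and 3.

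Trem2, an immunoglobulin-like receptor of macrophages and microglia, read 16.2, 21.1 and 29.0 in wild type and 1.91, 3.27 and 2.51 in knockout cells (at least 2.48-fold). Its second probe was brighter, with 99.5, 124 and 125 in wild type and 1.61, 5.02 and 25.9 in knockout cells. Only knockout array 3 was above background there. Tyrobp, the adaptor through which Trem2 signals, was above background on no array, as were the leukocyte markers Ptprc, Adgre1 and Itgam.

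Other members with roles in signalling were Tafa1, a secreted chemokine-like protein, Lingo2, a leucine-rich repeat membrane protein, and Apod, a lipid-carrying lipocalin. Lingo2 read 14.2, 82.8 and 86.0 in wild type and 1.54, 2.04 and 1.92 in knockout cells (at least 5.38-fold). Tafa1 read 59.7, 30.3 and 26.5 against 1.73, 6.00 and 3.78 (at least 4.19-fold). Both had all wild-type arrays above all knockout arrays, with array 1 low for Lingo2 and high for Tafa1. The other 2 Tafa1 probes were above background on wild-type array 1 alone or on no array. Apod read 41.2, 33.4 and 16.5 against 3.85, 3.18 and 5.92 (at least 3.27-fold), and Txk, a tyrosine kinase of the Tec family, 11.3, 28.8 and 21.4 against 5.42, 7.33 and 3.40 (at least 2.19-fold). Tec, a related kinase, was above background on all 6 arrays at both its probes.

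Among regulators of transcription, Tbx20, a T-box factor of heart development, read 12.1, 122.6 and 114 in wild type and 5.92, 3.47 and 2.00 in knockout cells (at least 6.39-fold). Its log2 bound was 2.68 with all arrays, 3.81 without wild-type array 1 and 0.22 on slide 1 alone. Array 1 was again close to its limit, at 1.55 times, and a second Tbx20 probe was above background on no array. Prdm1, a zinc finger repressor also called Blimp1, read 19.2, 36.1 and 36.1 against 1.92, 6.81 and 2.08 (at least 3.37-fold). En1, a homeobox factor that marks ventral limb ectoderm and a lineage of dermal fibroblasts, read 20.5, 31 and 28.3 against 7.72, 1.76 and 2.14 (at least 3.02-fold).

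The En1 probe was spotted 10 times on each array, which gives an error within the array. All 10 spots were above background on wild-type arrays 1, 2 and 3, where the spots had a mean ± SD of 20.5 ± 2.53, 31.04 ± 3.22 and 28.3 ± 2.30. On knockout array 1, 5 of 10 spots were above background (7.72 ± 2.02), and on knockout arrays 2 and 3 none of 10 were (1.76 ± 0.27 and 2.14 ± 0.49). En1 thus meets the rule at its edge, since more than 0.5 of the spots would have removed it. Its paralogue En2 was above background on all 6 arrays, between 18.2 and 52.5.

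In the list of mesenchymal patterning factors that holds Tbx20 and En1, none of the 41 other genes tested passed limma in either direction (4 lower and 3 higher at an unadjusted p under 0.05). Their median log2 difference was 0.03, against 0.07 over all features. Tbx18, another T-box factor, read 681, 338 and 309 in wild type and 1393, 631 and 1871 in knockout cells at its brighter probe. These overlapped before scaling by the 75th percentile and not after it, with knockout higher (log2 1.65, SE 0.41, limma adjusted p = 0.370).

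Ldb2, a cofactor that binds LIM-homeodomain factors, was high on wild-type array 1 alone, with 105.4, 16 and 20.4 against 3.30, 3.19 and 7.08 in knockout cells (at least 3.75-fold). Without wild-type array 1 its log2 bound was 1.098, against 1.91 with it. Ldb1, its close relative, was above background on all arrays at both probes. Sfmbt2, a Polycomb-group protein from an imprinted locus, had a dim member probe (12.2, 23.2 and 19.4 against 7.82, 6.49 and 9.34, a bound of 1.98-fold). A brighter Sfmbt2 probe read 251, 523 and 470 in wild type and 209, 195 and 349 in knockout cells, and these overlapped. Another Sfmbt2 probe was above background on no array. Sfmbt2 transcript was thus present in both groups.

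Among genes of the cytoskeleton, adhesion and matrix, Tnnt3, the troponin T of fast skeletal muscle, was the named member with the widest margin. It read 44.1, 78.9 and 61.7 in wild type and 8.06, 1.88 and 7.95 in knockout cells (at least 6.83-fold, means −4.19 ± 0.47 and −7.65 ± 1.05, SD, n = 3). Every wild-type array was at least 4.61 times above the limit. A second Tnnt3 probe read 40.7, 65.7 and 57.7 against 10.2, 4.07 and 12, with knockout arrays 1 and 3 above background. The genes of other muscle troponins, Tnnt1, Tnnt2, Tnni2 and Tnnc2, were above background on all 6 arrays. Tnni2, the troponin I of fast muscle, nonetheless had all wild-type arrays above all knockout arrays, with 210.4, 656 and 605 against 148, 61.2 and 77.9. Of the skeletal muscle list, 3 other genes were tested and 0 passed limma (0 at an unadjusted p under 0.05), with a median of 0.18 against 0.07.

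Dlgap1, a scaffold protein of excitatory synapses, read 26.4, 41.8 and 37.7 in wild type and 3.29, 4.80 and 1.82 in knockout cells (at least 4.0-fold). It is the only one of the 23 with the telomere repeat unit in its window. The 30 bases around it (GRCm38.p6, chr17:70561587-70561616, plus strand) are shown with the match in capitals, which reads TTAGGG on the opposite strand and begins 148 bases before the start:
Dlgap1: gactgggagttcCCCTAAgtaataattgtt
Thsd4, a matrix protein that promotes fibrillin assembly, was the member whose wild-type arrays 2 and 3 disagreed most, at 15.8 and 49.5 with 48.0 on array 1, against 1.55, 4.86 and 4.36 (at least 3.87-fold).

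Ctnna2, the alpha-catenin of neurons, read 11.6, 37.2 and 24 against 1.61, 1.51 and 2.12 (at least 2.51-fold). A second Ctnna2 probe did not show the same split, with 44.7, 8.74 and 6.51 in wild type and 3.19, 1.68 and 11.7 in knockout cells. Pcdhb5, a clustered protocadherin, read 9.84, 26.0 and 21.3 against 1.62, 3.33 and 2.41 (at least 2.03-fold). Its other probe read 310, 158 and 151 in wild type and 216, 64.5 and 214 in knockout cells, and the groups overlapped. Spag6, a protein of the sperm flagellum's central apparatus, read 9.19, 25 and 23.2 against 3.97, 6.83 and 8.30 (at least 2.02-fold), with overlap after scaling.

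Among enzymes and secreted proteins, Gda, guanine deaminase, read 47, 38.5 and 26.7 in wild type and 1.6, 3.55 and 1.77 in knockout cells (at least 4.21-fold). Its second probe gave the same order with more signal, at 166, 109 and 97.6 against 3.07, 13.1 and 5.08, and a fold of 11.4 against the same kind of bound. Only knockout array 2 was above background there. Clca3a2, of a family named for calcium-activated chloride channels, had the opposite shape to Cck and was high on wild-type array 1, with 832, 37.0 and 28.1 against 1.87, 1.84 and 7.29 (at least 11.0-fold). Without wild-type array 1 its log2 bound was 1.94, against 3.46 with it. Its relative Clca3a1 was likewise highest on array 1, with 1508, 62.4 and 56.9 in wild type and 2.44, 2.19 and 15.2 in knockout cells. Whether the probes of these 2 related genes cross-hybridise was not tested.

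Ugt2b34, a glucuronosyltransferase, read 9.14, 46.6 and 32.9 against 4.17, 1.56 and 3.47 (at least 2.78-fold), and Mug2, a protease inhibitor of the murinoglobulin family, 9.23, 14.4 and 22.8 against 3.55, 6.17 and 6.18 (1.67-fold). Rnf138rt1, a retrotransposed copy of the ubiquitin ligase gene Rnf138, read 11.5, 61.6 and 52.8 against 3.44, 4.48 and 8.31 (at least 3.86-fold). Rnf138 itself was above background on all 6 arrays at both its probes. Trim7, a tripartite-motif ubiquitin ligase, was even but dim, at 16, 17.5 and 20.2 against 7.28, 6.87 and 8.20 (at least 2.06-fold). Prr15, a proline-rich protein, read 74.1, 14.7 and 17.9 against 4.71, 2.74 and 5.79 (at least 3.10-fold). Without wild-type array 1 its log2 bound was 0.94, against 1.64 with it. Its brighter probe read 693, 83.4 and 98.6 in wild type and 14.3, 23.2 and 27.1 in knockout cells, so Prr15 too was present in both groups.

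The unnamed transcripts other than BC012270 lay between 1.16- and 7.23-fold. AK013308 read 10.9, 150 and 150 in wild type and 2.45, 6.29 and 4.59 in knockout cells (at least 7.23-fold). AF004666 read 91.5, 33.5 and 37.2 against 4.72, 4.55 and 3.48 (at least 5.59-fold), and AK014119 11.2, 61.8 and 50.8 against 4.45, 1.52 and 1.78 (at least 3.78-fold). Both of the AK transcripts were near their limit on wild-type array 1, while AF004666 was highest there. AK035046 read 24.1, 32.1 and 41.9 against 1.79, 1.74 and 9.04 (at least 3.63-fold), and AK039892 20.6, 31.5 and 31.1 against 5.65, 5.18 and 7.59 (at least 3.14-fold). These were more even. XM_897036 had a dim member probe with a bound of 2.12-fold, but another of its probes was among the bright ones, at 12090, 26960 and 25480 in wild type and 1929, 6135 and 6211 in knockout cells.

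At the edge of the rule, AK033361 was the member with the least margin, at 8.99, 7.61 and 14.9 in wild type and 5.69, 6.61 and 3.34 in knockout cells. Its lowest wild-type array was 1.00 times the limit. Just outside were AK085051, AK043558 and AK033032, which knockout array 3 alone excluded with 8.90, 9.22 and 9.28, or 1.03, 1.07 and 1.07 times its limit. In all, 234 further probes were above background on all wild-type arrays and on 1 knockout array, and 229 on 2 wild-type arrays and no knockout array. The count of 47 therefore moved with every array. Leaving out wild-type array 1, 2 or 3 gave 164, 62 or 144 probes, and leaving out knockout array 1, 2 or 3 gave 75, 85 or 215. Leaving out an array can only add probes under this rule.

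A second probe was on the array for 17 of the 47 transcripts, 21 probes in all, and none of them was itself a member. For 12 transcripts such a probe was above background on at least 1 knockout array, and for 6 on all 3: Adra2a, Ednrb, Pcdhb5, Prr15, Sfmbt2 and XM_897036. Of the 13 second probes above background on all wild-type arrays, 11 had wild type above knockout without overlap and by at least 2-fold, and Pcdhb5 and Sfmbt2 were the exceptions. Non-overlap alone, after scaling and with wild type higher, was met by 5.84% of all probes above background on all wild-type arrays. The share that was also at least 2-fold apart was not taken. All counts of second probes here come from the same arrays that chose the members and are a description. For the other 5 transcripts (AK076221, Mug2, Tafa1, Tbx20 and Txk) no second probe was above background in knockout cells, and none was on all wild-type arrays either. The other 30 transcripts had 1 probe only.

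**Figure D2:**
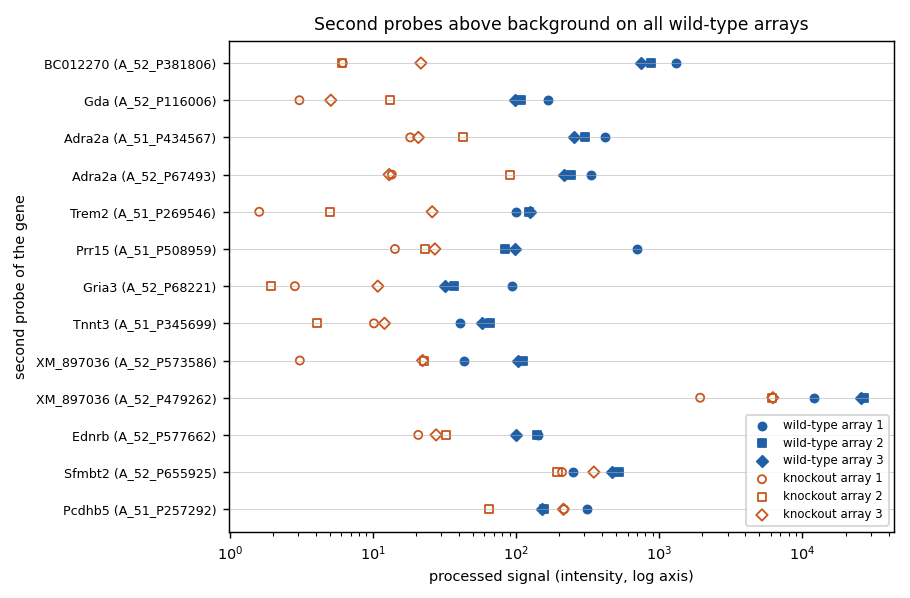
Processed signal (log axis) of the 13 second probes of member transcripts that were above background on all wild-type arrays; filled symbols are the 3 wild-type arrays and open symbols the 3 knockout arrays. At 11 probes all wild-type points lie to the right of all knockout points, and at Pcdhb5 and Sfmbt2 they overlap.

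The wild-type arrays differed among themselves more at the members than over all probes above background in wild type. Array 1 and the mean of arrays 2 and 3 were over 2-fold apart for 20 of 47 members (42.6%), 16 lower and 4 higher on array 1. This was so for 14.6% of the probes above background in wild type. Most members were dim for that set, and the share at a like level was not taken. The 16 include Cck, Tbx20, Lingo2, Rnf138rt1 and Ugt2b34, and the 4 higher were Clca3a2, Ldb2, Prr15 and AF004666. The other 27, among them BC012270, Ednrb, Gria3, Tnnt3 and Gda, were within 2-fold. Arrays 2 and 3 were over 2-fold apart for 2 members, against 0.508% of those probes. Without array 1 the log2 bound moved from 2.43 to 3.32 for Lingo2, from 1.95 to 2.76 for Rnf138rt1, from 2.85 to 4.15 for AK013308, from 1.92 to 2.73 for AK014119 and from 3.99 to 5.88 for Cck. The median log2 bound was 0.74 on slide 1 alone and 1.82 on slide 2 alone, against 1.48 over both. In 7 members the log2 bound on slide 1 was below 0, which gives no fold there.

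**Figure D3:**
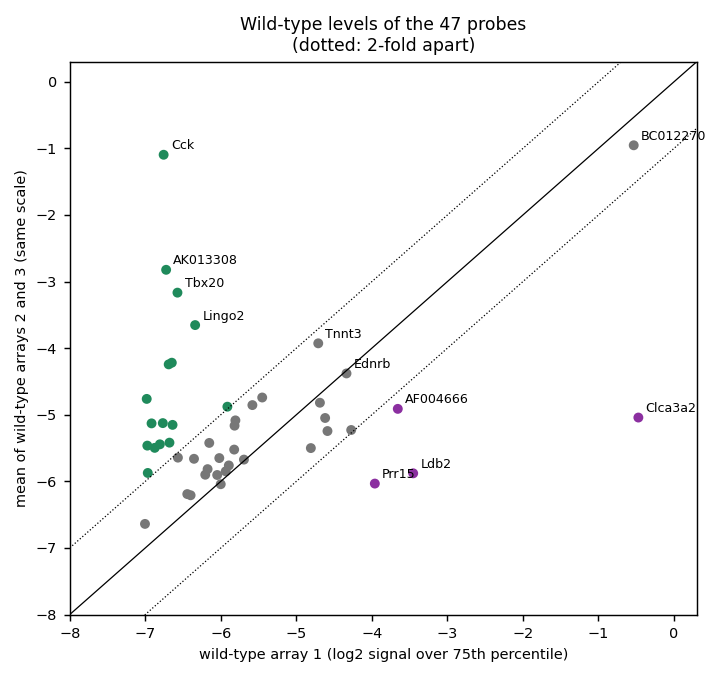
Level of each of the 47 probes on wild-type array 1 (horizontal) and as the mean of wild-type arrays 2 and 3 (vertical), both in log2 units scaled to the 75th percentile; the solid line is equality, dotted lines are 2-fold apart, and green and purple mark the 16 probes lower and the 4 higher on array 1. Cck lies far above and Clca3a2 far below the line, while BC012270 and Ednrb lie near it.

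Promoter sequence was not used by the rule. RefSeq windows from 250 bases before to 50 after the start (GRCm38.p6) were found for 23 of the 27 named genes. The median ratio of observed to expected CpG, a measure of how far a promoter resembles a CpG island, was 0.46. It was 0.75 for 9021 genes above background on all 6 arrays, 0.20 for 2529 genes above background on no array, and 0.60 for the 15 knockout-only genes with a window. The members ran from 0 in Ugt2b34 to 0.95 in En1, and 7 of 23 (30.4%) lay below 0.35, against 11.5% and 72.8% of the genes on all and on no array. En1, Ctnna2, Spag6, Adra2a, Prdm1 and Tbx20 lay between 0.75 and 0.95, and Lingo2, Thsd4, Mug2 and Trem2 between 0.16 and 0.22. TTAGGG, searched on both strands, was in the windows of 1 of 23 genes (4.35%), Dlgap1 as shown above, against 12% of 27025 genes. TATAAA was in 1 (4.35% against 15.7%), and GGGCGG, the letters of the GC box, in 7 (30.4% against 38.2%). Among genes above background on all 6 arrays and on no array, GGGCGG was in 69.0% and 19.4%. TATAAA was in 9.42% and 26.3% of these, and TTAGGG in 12.4% and 11.7%.

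**Figure D4:**
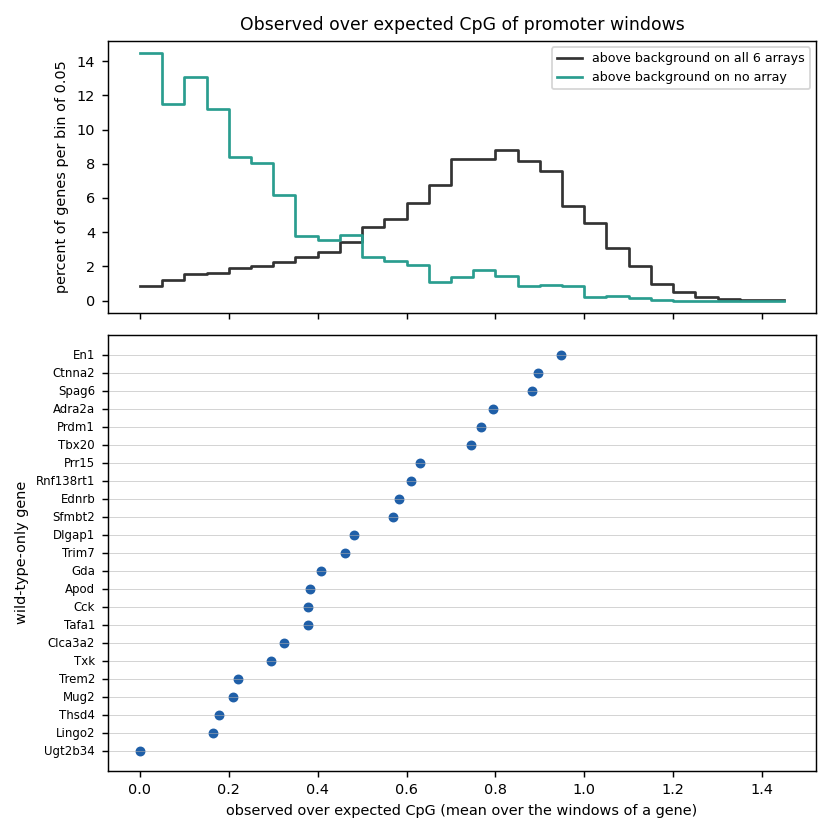
Upper panel: percent of genes per bin of 0.05 in the ratio of observed to expected CpG of the promoter window, for genes above background on all 6 arrays and on no array. Lower panel: the same ratio for each of the 23 wild-type-only genes with a window, which run from 0 in Ugt2b34 to 0.95 in En1.

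The 27 members with a gene symbol did not lie together in the genome. The 20 unnamed transcripts, BC012270 among them, were not placed, so their distance from Terf2ip is not known here. In the gene order of GRCm38.p6, the closest pair, Sfmbt2 and Spag6, stood 37 protein-coding genes apart. None of the 27 lay within 80 protein-coding genes of Terf2ip. Among the last 40 protein-coding genes of a chromosome, next to the distal telomere, were 2 members, Tnnt3 and Rnf138rt1, and 3.96% of the genes above background in wild type.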

How the data were processed

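RNA of 3 wild-type and 3 Rap1 knockout fibroblast samples was hybridised to 1-colour Agilent arrays. The deposited scanner files hold intensity values that are background-subtracted but not normalised between arrays, and per the file headers they were made with Feature Extraction 10.5.1.1 and build mm8. The deposited value table holds the authors' normalised log2 values. The submitters' processing notes name limma, and how the table was normalised is not stated in these sources. Set against the scanner files, its scale is log2 and its columns are uncentred with medians of 6.86 to 6.87. Its knockout columns 1, 2 and 3 matched scanner files 2, 3 and 1 (r of 0.999992 or more, against 0.978 to 0.984 for the labelled file). Group means do not depend on that order, but the replicate block and the number of a left-out knockout array do, and these follow the scanner files.

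Spots of a probe were averaged, control spots left out, and log2 signals scaled by each array's 75th percentile. In R 4.3.3, limma 3.58.1 was fitted to 19657 features above background on all arrays of a group (brightest probe per gene, Benjamini-Hochberg 0.05, 2-sided), and the scripts were tested on simulated data. Symbols were given to 23374 of 41174 probes. RefSeq tables gave names, promoters and gene order.

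The members and lists were chosen with earlier results of these data known. Genes named were the 24 members with a symbol and the 6 without one of largest bound, those in a list, the 3 of lowest and of highest margin and the 3 probes just outside. Relatives of members were chosen by name. Alternatives covered the flag, limit, scaling, normalisation, slide, replicate block and left-out arrays.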

Additional observations from a re-analysis of the deposited data

How the results depend on the processing

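The count of 47 probes was 14 with wild type at least 2 times and 2 with it at least 4 times above the limit. It was 281 with 1 knockout array allowed above background, and 62 to 215 with 1 array left out. It was 46 and 47 when every spot had to pass or outlier spots were dropped, and 85 under 1 scaled limit for all arrays (27 shared with the 47), an alternative chosen after seeing the data. In the deposited value table no limit was applied, and the median plain log2 difference of the group means was 0.39. The median log2 bound of 1.48 was 0.38 after normexp and quantile normalisation and 0.74 on slide 1 alone. It was 1.22 to 1.73 with 1 array left out. The offset of 50 added by normexp compresses signals as dim as these. For single members, 453 of 564 values moved by less than the wild-type spread, 103 moved by more and 8 turned sign. They include the plain differences of the deposited values. The spread was each member's own SD over 3 wild-type arrays, so the count of 453 is no measure of stability. Cck (SD 3.27) counted as unmoved from 3.99 to 2.115 after normexp, and Gria3 (SD 0.10) as moved from 2.20 to 2.10 under array median scaling. On slide 1 alone the log2 bound was −0.19 for Ugt2b34, −0.12 for AK048751, −0.012 for AK038807, −0.080 for Pcdhb5, −0.18 for Spag6, −0.17 for Mug2 and −0.21 for AK033361. With 1 array left out it ran from −0.11 (without wild-type array 3) to 0.42 for AK033361. The cause was not tested.

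The 2 limma calls became 0 among probes above background on all 6 arrays (1779 features at an unadjusted p under 0.05). That 0 was fixed in advance, since neither called probe was above background on all knockout arrays. The calls became 0 with the slide as a block (3483) and 0 with wild-type arrays 2 and 3 averaged (693), the last chosen after seeing the data. They became 0 with the replicate number as a block (2354), where deviations of same-numbered arrays correlated at 0.04, 0.05 and −0.06. The numbers were not taken as pairs. With 1 array left out they ranged from 0 to 190, the most without wild-type array 1. The other 4 settings gave 2 calls.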
